A study of Mus musculus with 12 samples.

Results

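Osteoblast transcription factors are the DNA-binding proteins that commit mesenchymal cells to bone formation and hold them there. Of 9 listed factors (Runx2, Sp7, Dlx3, Dlx5, Dlx6, Msx1, Msx2, Twist1 and Twist2), 7 were found by gene name in the deposited normalized table of 17408 genes. Msx2 and Twist2 were read from the count table of 49315 genes alone. All 9 were described in 12 bulk RNA-seq libraries of mouse femoral shaft, and the 7 that passed a filter on low counts were tested among 18161 genes.

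Runx2 is a runt-domain factor without which osteoblasts do not form, and Sp7 (osterix) is a zinc-finger factor that acts downstream of it. Dlx3, Dlx5 and Dlx6 are distal-less homeodomain proteins that promote osteoblast genes, while the Msx homeodomain proteins can bind the same DNA elements and counter them. Twist1 and Twist2 are basic helix-loop-helix proteins that bind the Runx2 DNA-binding domain and hold it inactive in early cells.

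The mice were males of 12 weeks, either Cat +/+ (wild type) or Cat -/- (labelled as knockout of catalase, the enzyme of peroxisomes that degrades hydrogen peroxide). They received gavage on 4 days in a row with ethanol from a 31.5% (v/v) solution, or with an equal volume of PBS, the saline vehicle. The ethanol dose was 3 g/kg on each of the first 2 days, then 4 g/kg, then 4.5 g/kg, and the mice were killed 6 hours after the final dose. The shafts had been cleared of marrow by centrifugation, and each library pooled 2 mice, with 3 libraries in each of 4 groups. Wild-type PBS libraries carry the numbers 7 to 9, wild-type ethanol 10 to 12, knockout PBS 1 to 3 and knockout ethanol 4 to 6. The sources used here give neither the strain, nor the knockout allele, nor a batch, and p-values measure the spread between pools, not between single mice.

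Totals ran from 19950222 to 28789308 counts. Levels below are CPM, a gene's share of the scaled library total, as mean ± SD over the 3 libraries of a group. Cat itself, the labelled target, lay at 65.95 to 74.2 CPM in the 6 knockout libraries and at 127.9 to 174.7 CPM in the 6 wild-type libraries, which did not overlap. Each library labelled knockout still had 1610 to 2001 Cat counts, so Cat RNA was lower but not lost. No source used here says which part of the gene was altered, and knockout below names the label. Each of the 5 osteoblast marker genes (Col1a1, Bglap, Bglap2, Ibsp and Alpl) had counts in all 12 libraries, so osteoblast RNA was present in each. Summed over 16 genes, skeletal muscle markers ran from 1441 to 41780 CPM and were highest in libraries 8, 9 and 12.

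Promoter windows were available from RefSeq (GRCm38.p6) for Runx2, Msx1, Msx2, Twist1 and Twist2. The 250 bases before the annotated start are shown for Runx2, for the matrix metalloproteinase gene Mmp13, a known Runx2 target that was the 1 gene of its list to rise, and for the antisense gene Dlx6os1, which spans Dlx6. Each sequence runs 5′ to 3′ on the gene's own strand, and capitals mark a RUNX core (TGTGGT or its reverse complement ACCACA) or a homeodomain core (TAATTA, its own reverse complement). Mmp13 and Dlx6os1 were picked for printing after their values were seen.
Runx2: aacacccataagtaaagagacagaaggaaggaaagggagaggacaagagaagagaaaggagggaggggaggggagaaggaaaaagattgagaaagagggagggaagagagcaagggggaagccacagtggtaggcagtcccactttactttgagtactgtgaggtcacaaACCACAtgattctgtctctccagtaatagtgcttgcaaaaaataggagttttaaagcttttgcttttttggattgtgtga
Mmp13: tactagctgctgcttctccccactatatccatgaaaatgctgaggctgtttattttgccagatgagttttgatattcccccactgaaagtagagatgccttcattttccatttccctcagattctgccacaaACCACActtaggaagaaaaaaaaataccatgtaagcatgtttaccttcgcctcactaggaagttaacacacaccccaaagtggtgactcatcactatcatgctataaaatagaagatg
Dlx6os1: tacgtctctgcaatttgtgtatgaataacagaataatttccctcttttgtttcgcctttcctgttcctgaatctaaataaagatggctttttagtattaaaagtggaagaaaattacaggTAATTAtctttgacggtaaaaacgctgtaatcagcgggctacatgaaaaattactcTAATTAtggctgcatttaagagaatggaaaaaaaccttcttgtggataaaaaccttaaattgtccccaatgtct
The windows are chr17:44814628-44814877 (minus strand), chr9:7272264-7272513 (plus strand) and chr6:6869534-6869783 (minus strand). The first lies partly inside the longer GENCODE model of Runx2, whose outer end is at 44814797, and the third lies wholly inside the GENCODE model of Dlx6os1, whose outer end is at 6871592. The RUNX core began 80 bases before the start in Runx2 and 118 bases before it in Mmp13, and the homeodomain core began 130 and 74 bases before the first start of Dlx6os1. Both strands were searched. A RUNX core stood in 14.0% of 32851 windows of the same length and a homeodomain core in 4.84%. Among the 5 factors with an entry, 1 held a RUNX core (Runx2) and 1 a homeodomain core (Msx2, 187 bases before the start). Of 12 osteoblast target genes with an entry, 4 held a RUNX core in at least 1 window. Some of these genes have more than 1 window, and by window the count was 4 of 17. These matches describe letters only.

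Per exon length, Sp7 stood highest in this tissue. Mean levels over the 12 libraries, in RPKM (CPM per kilobase of exon, computed with GENCODE M21 exon lengths), were 25.4 for Sp7, 11.2 for Runx2, 10.3 for Dlx5, 9.45 for Dlx3, 8.22 for Twist1, 5.09 for Dlx6, 0.723 for Msx1, 0.0906 for Twist2 and 0.0694 for Msx2. Sp7 exceeded Runx2 in 12 of 12 libraries, by 2.4 times at the median. This order rests on the exon lengths, 8837 bases for Runx2 and 3398 for Sp7, which count every annotated exon of a gene. In CPM the order was the reverse, with means of 99.05 for Runx2 and 86.2 for Sp7. In RPKM, Runx2, Dlx5, Dlx3 and Twist1 were close neighbours. Runx2 exceeded Dlx5 in 10 of 12 libraries, Dlx5 exceeded Dlx3 in 10 of 12, and Dlx3 exceeded Twist1 in 8 of 12. Twist1 exceeded Dlx6, Dlx6 exceeded Msx1 and Msx1 exceeded Twist2 in all 12. Twist2 exceeded Msx2 in 8 of 12, so these 2 were not separated.

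**Figure D1:**
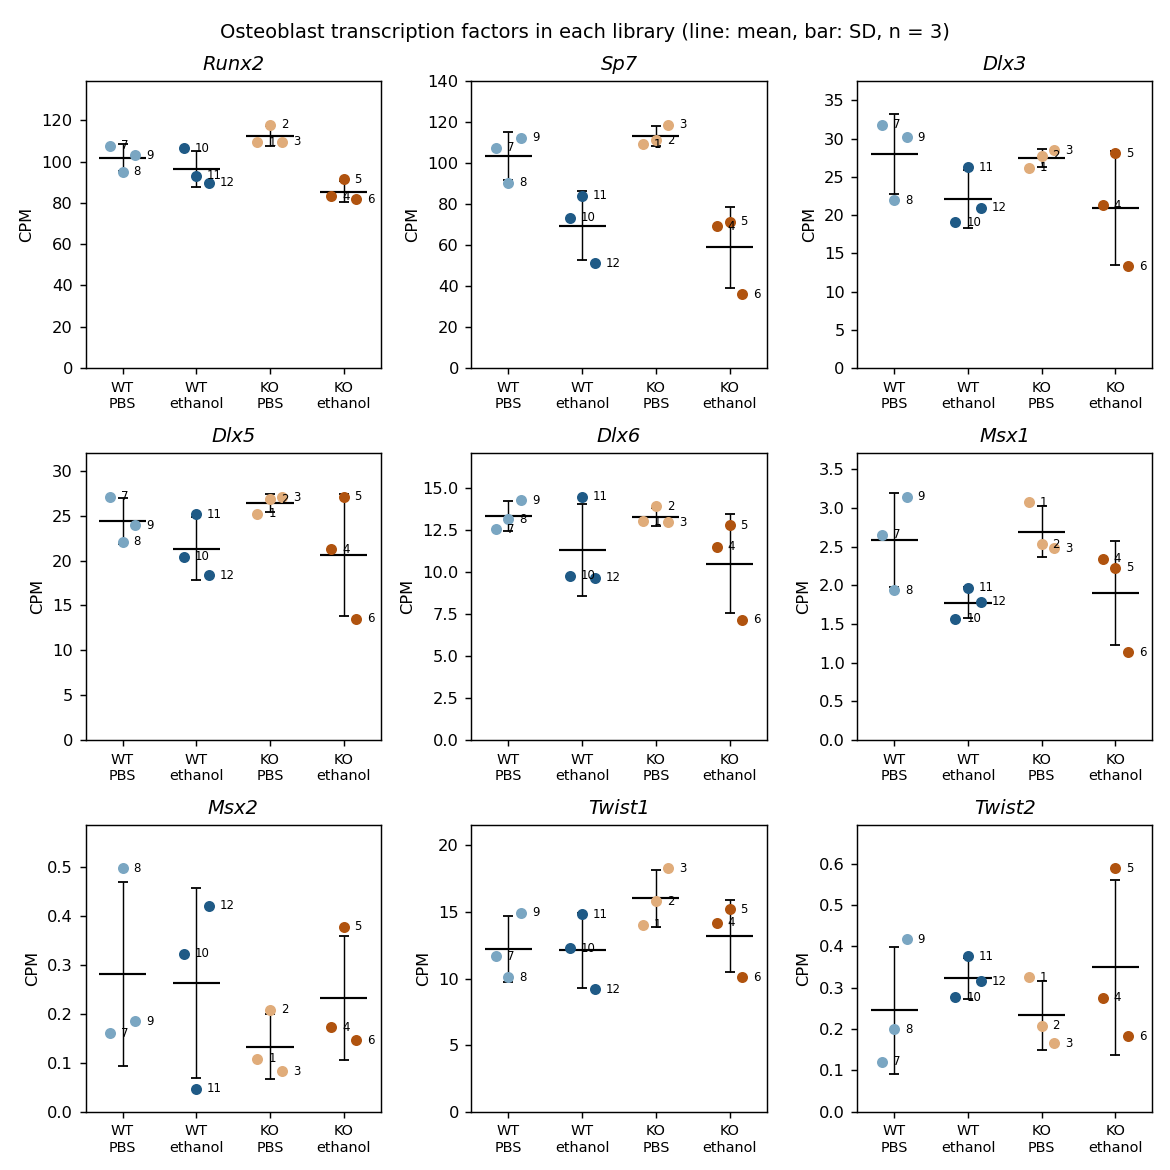
Level of each of the 9 factors in every library, in CPM (y axis from 0) by group (x axis; WT, wild type; KO, knockout). Points are libraries with their numbers, lines are means and bars are SD of 3 libraries; Sp7 lay at 90.4 to 119 CPM in the PBS libraries and at 36.1 to 84.0 CPM in the ethanol libraries.

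After ethanol, Sp7 and Runx2 fell when both genotypes were averaged, Sp7 to 0.592 of its PBS level and Runx2 to 0.849. Runx2 also fell in the knockout taken alone. The other 5 tested factors (Dlx3, Dlx5, Dlx6, Msx1 and Twist1) had lower fitted values after ethanol in both genotypes, and none of those values passed the test. Of 7 tested factors 2 were called lower and 0 higher in the averaged comparison (edgeR quasi-likelihood test, adjusted p under 0.05), where 5.81% of all 18161 genes were called lower and 5.02% higher. At an unadjusted p under 0.05 the count was 3, the third being Msx1, beside 4758 of all 18161 genes. DESeq2, limma-voom and limma-trend each called 2, beside 2545, 1978 and 1999 of all genes in either direction. The median log2 difference of the 7 was −0.29, beside −0.01 over all genes tested.

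Sp7 (chromosome 15, 102356606 to 102367182, minus strand) had 107, 90.4 and 112 CPM in the wild-type PBS libraries 7, 8 and 9. The wild-type ethanol libraries 10, 11 and 12 had 73.3, 84.0 and 51.2 CPM. In the knockout, the PBS libraries 1, 2 and 3 had 109, 111 and 119 CPM and the ethanol libraries 4, 5 and 6 had 69.3, 71.5 and 36.1 CPM. Every ethanol library thus lay below every PBS library, with libraries 6 and 12 the lowest. Sp7 was the 1 factor of the 7 for which this held, against 3.83% of all genes tested.

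The fitted difference of Sp7 was −0.57 on the log2 scale in wild type (SE 0.25, adjusted p = 0.304), −0.94 in the knockout (SE 0.25, adjusted p = 0.0945) and −0.76 averaged over genotype (SE 0.18, adjusted p = 0.0268). Only the averaged value passed the edgeR test. DESeq2 also called the knockout value (−0.94, adjusted p = 0.0020). The averaged call was lost without knockout PBS library 1, 2 or 3 or wild-type PBS library 9 (adjusted p = 0.0559, 0.0580, 0.0670 and 0.0602). With all genes of at least 1 count kept it was also lost (adjusted p = 0.0650). The same held without the muscle-rich libraries 8, 9 and 12 (−0.69), which leaves 1 wild-type PBS library. Of 9 alternatives other than leaving out 1 library, 7 kept the call, among them the muscle covariate on all 12 libraries. Without libraries 6 and 12, a choice made after seeing the data, the averaged value was −0.54 (adjusted p = 0.00281) and the knockout value was −0.68 (adjusted p = 0.0119).

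Of the 5 osteoblast markers, 3 fell in the averaged comparison (edgeR), 1 without any 1 of libraries 1, 2, 3, 4, 6, 7, 8, 9 or 11 and 0 without the muscle-rich libraries (4 at an unadjusted p under 0.05). Of all genes, 5.81% fell in the averaged main fit. None of the 5 markers passed in either genotype alone. In wild type 1 and in the knockout 5 had an unadjusted p under 0.05, beside 2907 and 2980 of all 18161 genes. DESeq2 called 1 and 5 there, beside 731 and 986 of all genes in either direction. limma-voom and limma-trend each called 0 and 1, beside 152 and 455 (limma-voom) and 251 and 360 (limma-trend) of all genes. Their sum over 5 of 5 genes was 12340 to 15590 CPM in wild-type PBS, 5952 to 11780 in wild-type ethanol, 18370 to 21970 in knockout PBS and 5720 to 12690 in knockout ethanol libraries, and libraries 6 and 12 were again the lowest. The sums did not follow Sp7 throughout. Knockout PBS sums lay wholly above wild-type PBS sums, where the Sp7 ranges overlapped. Knockout ethanol library 5, at 12690 CPM, was above wild-type PBS library 7, at 12340. Most of each sum was Col1a1, with means of 11930 CPM in wild-type PBS and 17750 CPM in knockout PBS libraries. Taken singly, Alpl, Bglap and Bglap2 were lower in every ethanol library than in every PBS library, as Sp7 was (3.83% of all genes). The highest ethanol and lowest PBS values were 158.3 and 174.1 CPM for Alpl, 478.3 and 501.1 for Bglap, and 196.7 and 210.5 for Bglap2. Col1a1 and Ibsp were not so separated. None of the 5 osteoblast markers was at 0 in any library, and all 5 also belong to the list of osteoblast targets described further on. That list also holds Dmp1 and Phex, which serve here as osteocyte markers too. Of 5 osteocyte markers (Dmp1, Sost, Phex, Mepe and Fgf23), 1 fell and 0 rose in the averaged comparison. Their median log2 difference was −0.29 averaged, −0.57 in wild type and −0.14 in the knockout. The part of osteocytes in any result here was not tested. In bulk tissue, fewer osteoblasts and less RNA per osteoblast cannot be told apart, and the part of cell number in the Sp7 result was not tested.

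Runx2 (chromosome 17, 44495987 to 44814797, minus strand) had 108, 95.2 and 103 CPM in wild-type PBS and 106, 93.2 and 89.8 CPM in wild-type ethanol libraries, which overlapped. In the knockout it had 109, 118 and 110 CPM in PBS and 83.3, 91.3 and 81.9 CPM in ethanol libraries, which did not. Its knockout PBS libraries were also above all 3 wild-type PBS libraries, by 109 against 108 CPM at the nearest. That difference did not pass the edgeR test (log2 0.14, adjusted p = 0.605). It ran from 0.06 to 0.18 over the alternatives. The share of all genes so separated was not computed. Of the 4 groups, knockout PBS was thus the highest and knockout ethanol the lowest in mean level, at 112 ± 4.73 and 85.5 ± 5.08 CPM (SD, n = 3).

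The log2 difference of Runx2 after ethanol was −0.08 in wild type (SE 0.08, adjusted p = 0.669), −0.39 in the knockout (SE 0.08, adjusted p = 0.0270) and −0.24 averaged (SE 0.05, adjusted p = 0.0187). The 2 ethanol differences were themselves compared by the interaction, −0.31 (SE 0.11, unadjusted p = 0.0139, adjusted p = 1), so the edgeR test over all genes did not show that the genotypes differed. The knockout call held in the 3 other tools and both other scalings, but not without library 1, 2, 3, 4 or 6, each of which left 2 libraries in 1 arm (−0.36 to −0.41 on the log2 scale; adjusted p = 0.0867, 0.128, 0.101, 0.0955 and 0.124). It was also lost without libraries 6 and 12 together (−0.36, adjusted p = 0.0775). The averaged call was lost without library 2 (adjusted p = 0.0551) or 6 (adjusted p = 0.0520) and without 6 and 12 together (−0.20, adjusted p = 0.0726).

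**Figure D2:**
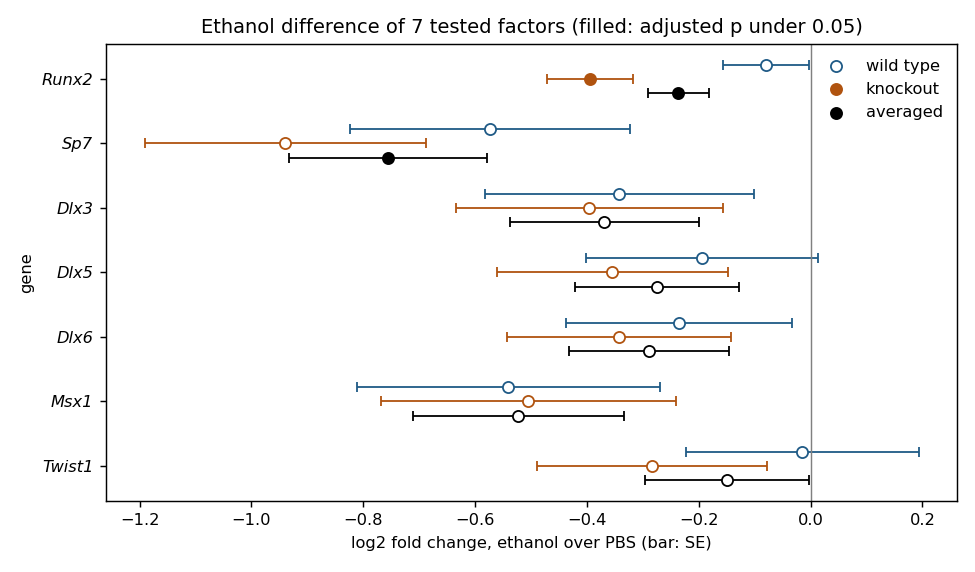
Log2 fold change of ethanol over PBS (x axis) for the 7 tested factors (y axis), in wild type, in knockout and averaged over genotype; bars are SE. All 21 points lie below 0, and the filled points, Runx2 in knockout and Runx2 and Sp7 averaged, are those with an adjusted p under 0.05.

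Within wild type, 0 of the 7 factors were called (edgeR), where 0.705% of all genes were called lower and 0.556% higher. Sp7 alone had an unadjusted p under 0.05, beside 2907 of all genes. DESeq2, limma-voom and limma-trend also called 0 of the 7, beside 731, 152 and 251 of all genes in either direction. In data simulated for this comparison, the test recovered 25.4% of genes changed 1.5-fold and 85.1% of those changed 2-fold. The simulation gave every gene the same dispersion and no muscle difference between libraries, and changed only well-counted genes. The SE of the factors in wild type ran from 0.08 (Runx2) to 0.27 (Msx1), so these rates are not their own. Within the knockout 1 of 7 was called, Runx2, where 0.903% of genes were called lower and 0.964% higher. DESeq2 called 2 there, beside 986 of all genes in either direction. All 3 ethanol libraries lay below all 3 PBS libraries for 1 factor in wild type, Sp7 (9.06% of all genes), and for 4 in the knockout, Runx2, Sp7, Dlx6 and Msx1 (16% of all genes).

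Relative to Runx2 in the same library, Sp7 was lower after ethanol. The ratio of Sp7 to Runx2 counts lay between 0.945 and 1.09 in the 6 PBS libraries, at 0.570 to 0.902 in wild-type ethanol and at 0.442 to 0.832 in knockout ethanol libraries. No ethanol library reached the lowest PBS value. The difference in the log2 ratio was −0.56 averaged over genotype, −0.52 in wild type and −0.61 in the knockout (exact two-sided permutation test within genotype, 400 permutations, p = 0.005, the smallest they can give; adjusted over 6 ratio tests, 0.03). Leaving out any 1 PBS library, 1, 2, 3, 7, 8 or 9, kept it between −0.54 and −0.59 with an adjusted p of 0.06 to 0.12. With a library left out fewer than 400 permutations exist, so the permutation p moves in coarser steps. The ratio cancels library scaling, but not a change in the mix of cells.

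**Figure D3:**
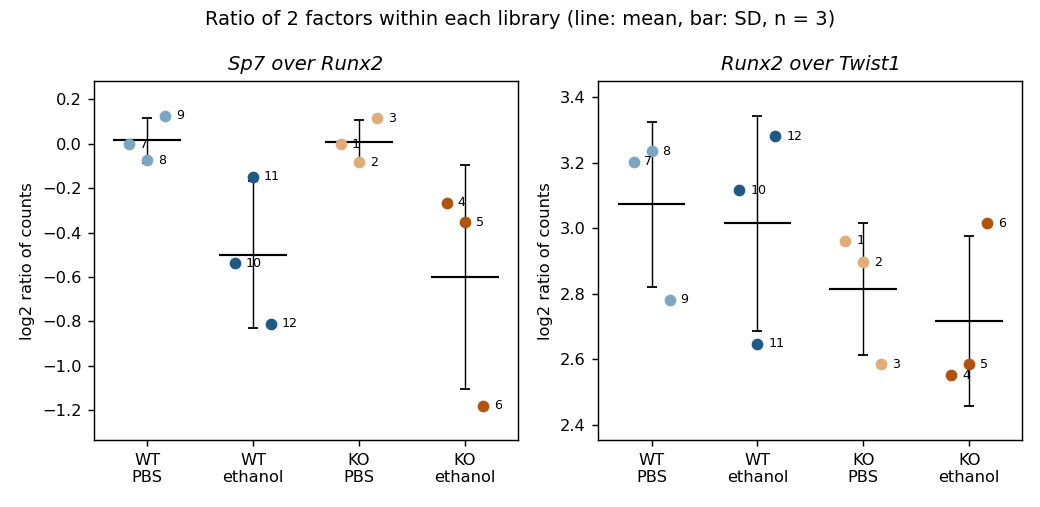
Log2 ratio of Sp7 to Runx2 counts (left) and of Runx2 to Twist1 counts (right) in each library, by group; points are numbered libraries, lines are means and bars SD of 3 libraries. On the left the 6 ethanol libraries lie below the 6 PBS libraries, and on the right the groups overlap.

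The other 5 ratio tests did not pass (adjusted exact permutation p = 0.3 to 0.745). Runx2 to Twist1, the factor to its inhibitor, differed by −0.08 on the log2 scale between ethanol and PBS (p = 0.605, exact permutation) and by −0.28 between knockout and wild type (p = 0.1, exact permutation). The ratio of Dlx5 to its antagonist Msx2 rests on 1 to 10 Msx2 counts per library.

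In CPM, the distal-less genes were measured at lower levels than Sp7 and Runx2. Dlx3 (chromosome 11, 95120119 to 95125296, plus strand) had 31.8, 21.98 and 30.2 CPM in wild-type PBS, 19.0, 26.3 and 20.96 in wild-type ethanol, 26.2, 27.8 and 28.5 in knockout PBS and 21.3, 28.1 and 13.3 in knockout ethanol libraries. Both pairs of groups overlapped, and library 6 was the lowest of the 12. Its ethanol difference was −0.34 in wild type, −0.40 in the knockout and −0.37 averaged (SE 0.17, adjusted p = 0.200).

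Dlx5 (chromosome 6, 6877805 to 6882085, minus strand) had 24.4 ± 2.53 CPM in wild-type PBS, 21.3 ± 3.51 in wild-type ethanol, 26.4 ± 1.003 in knockout PBS and 20.7 ± 6.82 in knockout ethanol libraries (SD, n = 3). In the last group library 5 had 27.1 CPM, above all 3 knockout PBS libraries, and library 6 had 13.5 CPM. Its averaged ethanol difference was −0.27 (SE 0.15, adjusted p = 0.271). Dlx6, its neighbour on the same chromosome (6863334 to 6868568, plus strand), had 13.3 ± 0.884, 11.3 ± 2.75, 13.3 ± 0.538 and 10.5 ± 2.94 CPM in the same order of groups. Its averaged difference was −0.29 (SE 0.14, adjusted p = 0.226), and the wild-type groups overlapped through library 11 at 14.5 CPM.

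Dlx6os1, a noncoding gene, fell. Dlx6os1 can act as a partner of Dlx proteins at nearby enhancers, a role that was not tested in these data. It lies on chromosome 6 from 6820189 to 6871592 on the minus strand, across the whole of Dlx6, and its promoter window printed above holds 2 homeodomain cores. It had 8.98 ± 1.62 CPM in wild-type PBS and 4.69 ± 0.593 in wild-type ethanol, and 8.48 ± 0.301 and 4.43 ± 1.42 in the knockout. All 6 ethanol libraries were below all 6 PBS libraries. The difference was −0.94 averaged over genotype (SE 0.15, adjusted p = 0.00418), a call kept when each library was left out in turn, and also −0.94 in each genotype alone (adjusted p = 0.0617 in wild type and 0.0524 in the knockout). Its difference from the change in Dlx6 was not tested. The sources used here do not say whether counting used strand, so reads of Dlx6os1 and Dlx6 may not be fully separated. Of the 7 listed antisense or overlapping genes 4 were tested, and the other 3 tested ones were not called.

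The Msx and Twist genes showed no called difference. Msx1 (chromosome 5, 37820485 to 37824583, minus strand) had 2.66, 1.94 and 3.15 CPM in wild-type PBS, 1.57, 1.97 and 1.79 in wild-type ethanol, 3.07, 2.54 and 2.48 in knockout PBS and 2.35, 2.23 and 1.13 in knockout ethanol libraries, from 31 to 85 counts each. The wild-type groups overlapped by library 8 alone and the knockout groups did not overlap. Its averaged ethanol difference was −0.52 (SE 0.19, adjusted p = 0.101), in size second to Sp7 among the 7 factors.

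Twist1 (chromosome 12, 33957671 to 33959829, plus strand) was nearest to no difference. It had 12.2 ± 2.48 CPM in wild-type PBS, 12.1 ± 2.81 in wild-type ethanol, 16.0 ± 2.13 in knockout PBS and 13.2 ± 2.70 in knockout ethanol libraries (SD, n = 3), and all groups overlapped. The averaged ethanol difference was −0.15 (SE 0.15, adjusted p = 0.579). Its wild-type value, −0.02, turned positive under several settings. Msx2 had 1 to 10 counts and Twist2 3 to 14 counts per library, 63 and 82 in all, and both fell below the filter. With all genes of at least 1 count kept, their averaged ethanol differences were 0.33 for Msx2 (SE 0.47, adjusted p = 0.886) and 0.47 for Twist2 (SE 0.38, adjusted p = 0.653).

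No factor passed the test for a difference by catalase genotype. Under PBS, under ethanol and averaged over gavage, edgeR called 0 of the 7, where 0.011% of all genes were called in each of the 3 comparisons. At an unadjusted p under 0.05 the counts were 0, 1 (Runx2) and 0, beside 1350, 1050 and 2591 of all genes. DESeq2, limma-voom and limma-trend called 0 of the 7. Runx2 was 0.14 higher on the log2 scale in knockout than in wild-type PBS libraries (SE 0.08, adjusted p = 0.605) and −0.17 under ethanol (SE 0.08, adjusted p = 0.820). Twist1 differed by 0.39 under PBS (SE 0.21, adjusted p = 0.605) and 0.12 under ethanol. These fits use the same libraries as the ethanol comparisons, so the values are not independent of them.

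For the interaction, edgeR called 0 of the 7 factors and 0% of all genes (359 genes at an unadjusted p under 0.05), and the other 3 tools called 0 of the 7. The interaction was −0.37 for Sp7 and −0.31 for Runx2, each with an adjusted p of 1, and lay between −0.37 and 0.04 over the 7 factors.

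Among the 12 libraries, the factors varied together to different degrees, given here as Pearson's r of log2 CPM with no test, since group, library and cell mix are shared. The correlation was 0.946 for Dlx3 with Dlx5, 0.910 for Dlx5 with Dlx6 and 0.817 for Sp7 with Runx2, and lowest, 0.458, for Runx2 with Twist1. By ranks (Spearman's rho) the same pairs had 0.853, 0.483, 0.874 and 0.476. The value of Dlx5 with Dlx6 thus depended on the measure. Of 12085 genes with a mean of at least 5 CPM, those most alike to Sp7 were Unc5b, a netrin receptor (r = 0.988), Nrp2, a semaphorin co-receptor (0.979), Gpx8, an endoplasmic reticulum peroxidase (0.974), Fkbp10, a collagen chaperone (0.972), and Cacnb3, a calcium channel subunit (0.970). Those most alike to Runx2 were the predicted gene Gm19299 (0.931), the phosphodiesterase gene Pde1a (0.909), Cacnb3 (0.909), the kinesin gene Kifc3 (0.908) and Sh3bgrl (0.906). Spearman's rho over the same libraries ran from 0.937 to 0.986 for the genes named with Sp7 and from 0.902 to 0.972 for those named with Runx2.

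**Figure D4:**
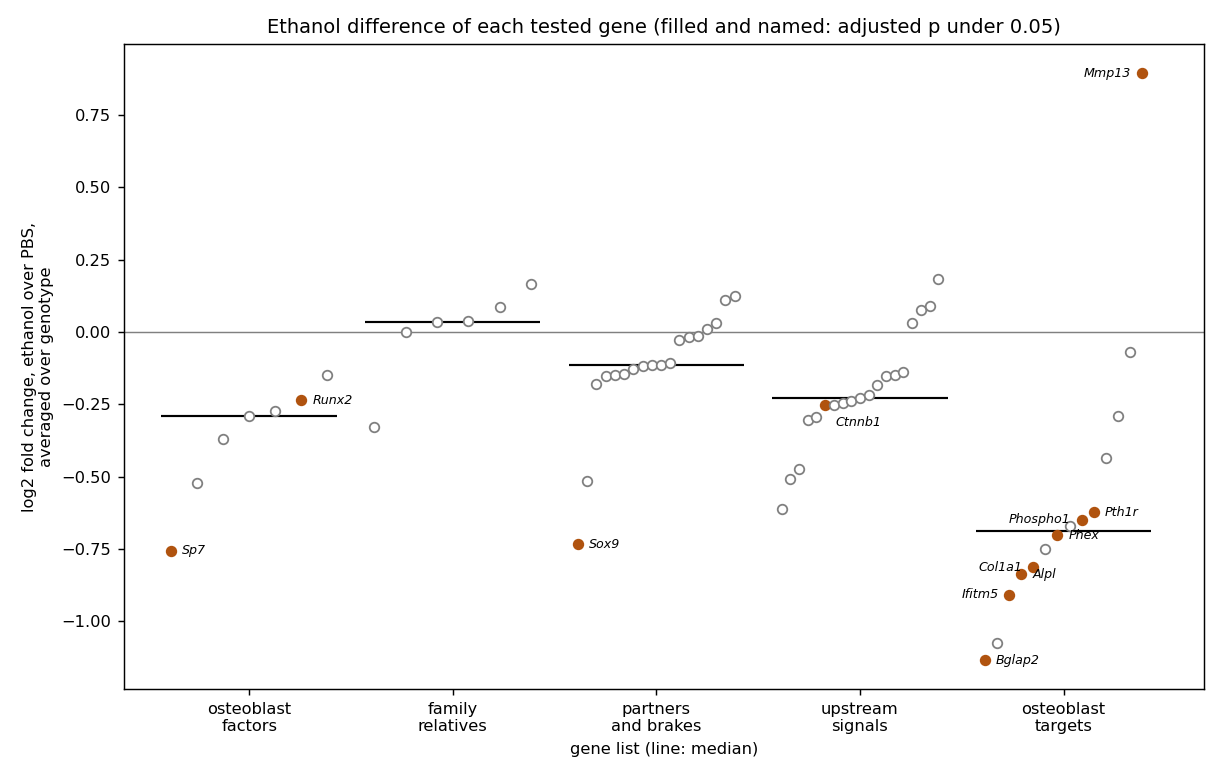
Log2 fold change of ethanol over PBS averaged over genotype (y axis) for each tested gene of 5 lists (x axis); each point is a gene, lines are list medians, and filled points have an adjusted p under 0.05. In the osteoblast target list 7 genes are filled below 0 and Mmp13 is filled above it.

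Of 14 listed osteoblast targets, genes that these factors are known to switch on, 7 fell, 1 rose and 6 did not pass the test in the averaged comparison, where 5.81% of all genes fell and 5.02% rose. The median log2 difference of the list was −0.69, beside −0.01 over all genes tested. The number that fell was 1 without the muscle-rich libraries 8, 9 and 12, 4 without library 2, 3, 4, 6 or 9 alone, 4 with all genes of at least 1 count kept, and 11 with DESeq2. Averaged, all genes called in either direction were 1967 in the main fit and 2545 with DESeq2. They were 1636 with no filter and 1040 to 1571 without library 2, 3, 4, 6 or 9. In the knockout alone 2 fell and 1 rose (0.903% and 0.964% of all genes). With DESeq2 11 fell there, beside 986 of all genes in either direction (339 in the main fit). Without library 1, 2, 3, 4 or 6, edgeR called 0 of the list lower and 52 to 158 of all genes. In wild type 0 fell and 1 rose (0.705% and 0.556% of all genes). There 7 of the list and 2907 of all genes had an unadjusted p under 0.05. DESeq2 called 4 of the list lower and 731 of all genes in either direction. limma-voom and limma-trend called 0 of the list lower, beside 152 and 251 of all genes in either direction. Bglap2, an osteocalcin gene with near-identical copies that reads may share, went from 239 ± 32.4 to 135 ± 66.4 CPM in wild type and from 335 ± 47.2 to 123 ± 53.1 in the knockout (averaged −1.13, SE 0.29, adjusted p = 0.0417). Ifitm5, a bone-restricted membrane protein that responds to Sp7, changed by −0.91 (SE 0.21, adjusted p = 0.0247). Alpl, the alkaline phosphatase of mineralisation, changed by −0.84 (SE 0.15, adjusted p = 0.00952).

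The Alpl call was kept when each library was left out, while those of Bglap2 and Ifitm5 were lost under several single omissions. Over these omissions the averaged difference lay between −1.32 and −0.97 for Bglap2 and between −1.06 and −0.78 for Ifitm5. Calls over all genes, in either direction, also moved, to between 1040 and 2152 beside 1967 in the main fit. The Bglap2 call was lost without any 1 of libraries 1, 2, 3, 4, 6, 7, 8, 9 or 11 (highest adjusted p = 0.0966), and the Ifitm5 call without 2, 3, 4, 6 or 9 (highest adjusted p = 0.0648). Both, with Alpl, were also lost without the muscle-rich libraries 8, 9 and 12, which leaves 1 wild-type PBS library. Of 9 alternatives other than leaving out 1 library, Bglap2 and Ifitm5 were each called in 7. Alpl was called in 8, among them the muscle covariate on all 12 libraries.

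Mmp13, the collagenase whose promoter window above holds a RUNX core, rose. It had 292 ± 44.1 CPM in wild-type PBS and 582 ± 92.4 in wild-type ethanol, and 291 ± 26.1 and 504 ± 106 in the knockout. The averaged difference was 0.89 (SE 0.12, adjusted p = 0.00197), called under each library left out. Within wild type it was 0.99 (adjusted p = 0.0298) and within the knockout 0.80 (adjusted p = 0.0430); the first was not called without library 1, 2, 3, 8, 9, 10 or 11 (highest adjusted p = 0.0714) and the second without 1, 2, 3, 4, 6, 7, 9 or 11 (highest adjusted p = 0.161). Chondrocytes also make Mmp13, and the 5 chondrocyte markers summed to 212 to 284 CPM in wild-type PBS, 73.5 to 236 in wild-type ethanol, 241 to 310 in knockout PBS and 64.3 to 195 in knockout ethanol libraries. In each of 3 libraries 1 of the 5 was at 0, and 4 of the 5 were tested and not called by edgeR in the averaged comparison (2 at an unadjusted p under 0.05; DESeq2 called 1 lower, limma-voom and limma-trend 0). Of all genes, 4758 had an unadjusted p under 0.05 in that comparison, and DESeq2 called 2545 in either direction. Osteoclast markers were higher in the same direction as Mmp13. All 7 of 7 had higher averaged values and 2 rose (1 to 3 with single libraries left out), where 5.02% of all genes rose. Their sum was 1774 to 2094 CPM in wild-type PBS and 2339 to 3185 in wild-type ethanol libraries, which did not overlap, and 1626 to 1995 in knockout PBS and 1845 to 2213 in knockout ethanol libraries, which did; none of the 7 was at 0 in any library. The part of either cell type in the Mmp13 value was not tested.

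Within the knockout, Phospho1, a phosphatase that supplies phosphate for mineral, went from 18.8 ± 0.531 to 10.96 ± 0.487 CPM (−0.78, SE 0.14, adjusted p = 0.0200). Pth1r, the parathyroid hormone receptor, went from 90.9 ± 11.2 to 55.9 ± 11.1 CPM (−0.70, SE 0.15, adjusted p = 0.0430). The Phospho1 call was lost without library 1, 2, 3, 4 or 6 (highest adjusted p = 0.0917). That of Pth1r held without library 11 or 12 alone and was lost without each of the libraries 1 to 10 (highest adjusted p = 0.169).

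Of 18 partners and brakes of the factors, 1 fell and 0 rose in the averaged comparison, a share near the 5.81% of all genes that fell, with a median of −0.11. DESeq2 called 3 lower and limma-voom and limma-trend 2. Over all genes, in either direction, these tools called 2545, 1978 and 1999. Sox9, the cartilage factor that opposes Runx2, went from 4.25 ± 0.739 to 2.54 ± 0.615 CPM in wild-type and from 4.16 ± 0.348 to 2.52 ± 0.823 CPM in knockout libraries (−0.73, SE 0.18, adjusted p = 0.0233). Without library 1, 2, 9 or 10 it was not called (highest adjusted p = 0.0585). The chondrocyte marker sums given above were lower in the same direction, and their part in the Sox9 value was not tested.

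Of 19 upstream signals (bone morphogenetic protein, Wnt and fibroblast growth factor genes), 1 fell and 0 rose, again near the 5.81% of all genes, with a median of −0.23. DESeq2 called 5 lower, beside 2545 of all genes in either direction. The gene called by edgeR was Ctnnb1, coding for β-catenin, the Wnt effector, which went from 511 ± 8.4 to 437 ± 19.3 CPM in wild-type and from 538 ± 12.2 to 442 ± 20.6 CPM in knockout libraries. Its averaged difference was −0.25 (SE 0.04, adjusted p = 0.00390), kept under each library left out. Its knockout difference, −0.28 (adjusted p = 0.0336), was not called without library 1, 2, 3, 4, 5, 6 or 11 (highest adjusted p = 0.158).

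The nearest relatives of the factors were not called. Of 7 listed (Runx1, Runx3, Sp1, Sp3, Dlx1, Dlx2 and Dlx4), 6 were tested, with a median averaged difference of 0.04. Runx3, with the smallest p, had 0.17 (SE 0.07, adjusted p = 0.174) and Runx1, the blood-forming runt factor, 0.09 (SE 0.05, adjusted p = 0.350). Without wild-type PBS library 7, Runx3 had 0.23 (adjusted p = 0.0215).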

How the data were processed

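RNA was measured in 12 pooled libraries of femoral shaft. Reads were handled with STAR 2.5.2b, Trimmomatic 0.36, Subread 1.5.2 and featureCounts on GRCm38, per the submitters' processing notes. The sources used here give neither the annotation nor the strand setting. The deposited table of whole-number counts per gene was used for all main results. The deposited normalized signal is each count divided by 1 factor per library, per the values of both tables, and served 1 alternative.

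Genes were kept by filterByExpr (minimum count 10, minimum total 15), scaled by TMM (factors 0.908 to 1.05) and fitted with edgeR 4.0.16 (R 4.3.3, quasi-likelihood, robust, 1 coefficient per group), with Benjamini-Hochberg adjustment over 18161 genes and a threshold of 0.05. Adjusted p-values are from this fit unless another tool is named. SE is the log2 difference divided by the square root of F. RPKM used GENCODE M21 exon lengths, over all annotated exons of a gene with overlaps counted once. Log2 CPM used a prior count of 2 and ratios a prior count of 0.5. Alternatives were RLE and upper-quartile scaling, no filter, DESeq2 1.42.0, limma-voom and limma-trend (limma 3.58.1), a muscle covariate, fewer libraries, and only the 2 groups compared. The fit was tested on simulated data.

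All members are named in every comparison, with up to 4 called genes per list and comparison (largest change), or, in a list with none, the 2 of smallest p; the 5 genes most alike to Runx2 and to Sp7; and Cat once. Members and lists were chosen with earlier results of these data known. Replicate libraries differed beyond sampling noise. Msx2 and Twist2 fell below the filter. Of the list of partners and brakes, 1 gene is not reported here and was left out of the counts and median.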

Additional observations from a re-analysis of the deposited data

How the results depend on the processing

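No paired analysis was possible because the replicate numbers 1 to 12 are not shared between groups. Of 1356 single-gene values under an alternative, 1195 kept their direction and their side of the threshold, 89 lost the call, 3 gained one and 69 turned in sign; of the 21 ethanol values of the factors 2, both of Twist1, turned under any alternative. Of 28 genotype and interaction values 20 turned under at least 1 alternative, and none was called under any. The cause of these changes was not tested. Without libraries 8, 9 and 12, the muscle-rich ones, wild-type PBS keeps 1 library, which is assumed to vary like the other groups.

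The count of factors called in the averaged ethanol comparison, 2, was 1 without the low-count filter, 1 without the 3 muscle-rich libraries, 1 without libraries 6 and 12, and 0 to 2 when single libraries were left out. In the knockout, 1 in the main fit, it was 2 with DESeq2 and 0 to 1 with single libraries left out. The log2 ratio of Sp7 to Runx2 after ethanol ran from −0.65 to −0.42 with single libraries left out. It lost its call without any 1 PBS library, where fewer permutations exist than in the main test. Between genotypes this ratio ran from −0.14 to 0.0921. Runx2 to Twist1 after ethanol ran from −0.15 to 0.0142.

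Twist1 after ethanol in wild type was 0.0166 with upper-quartile scaling, 0.00033 with only the 2 groups, 0.23 without the muscle-rich libraries, 0.15 without libraries 6 and 12, and −0.19 to 0.16 with single libraries left out. Averaged, it was 0.0104 without 6 and 12. Dlx6 between genotypes under PBS was 0.0035 with RLE, 0.0252 with upper quartile, 0.0036 with DESeq2, 0.0016 with limma-voom, 0.0040 with limma-trend, 0.0643 with the muscle covariate and 0.0850 without the muscle-rich libraries. The Msx1 interaction was −0.0504 with limma-voom and −0.0590 with limma-trend. Without the muscle-rich libraries, Dlx5 between genotypes was −0.0390 under PBS and −0.0988 averaged, Twist1 under ethanol −0.0550 and the Dlx3 interaction 0.0779. Without libraries 6 and 12, genotype values under ethanol were 0.12 for Dlx3, 0.0853 for Dlx5 and 0.0018 for Dlx6, interactions were 0.15 for Dlx3 and 0.0050 for Dlx6, and Dlx3 averaged over gavage was 0.0486.

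With single libraries left out, genotype values under PBS ran from −0.15 to 0.0756 for Dlx3, −0.0448 to 0.0608 for Dlx6 and −0.0856 to 0.24 for Msx1. Under ethanol they ran from −0.41 to 0.0181 for Sp7, −0.35 to 0.16 for Dlx3, −0.29 to 0.18 for Dlx5, −0.28 to 0.11 for Dlx6, −0.0886 to 0.36 for Msx1 and −0.0399 to 0.29 for Twist1. Averaged over gavage they ran from −0.0422 to 0.0210 for Runx2, −0.14 to 0.0736 for Sp7, −0.19 to 0.0672 for Dlx3, −0.0900 to 0.15 for Dlx5, −0.14 to 0.0532 for Dlx6 and −0.0136 to 0.21 for Msx1. Interactions ran from −0.32 to 0.19 for Dlx3, −0.40 to 0.0692 for Dlx5, −0.27 to 0.11 for Dlx6 and −0.15 to 0.30 for Msx1. Depth limits Msx2 and Twist2, which had 1 to 14 counts per library.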
